A study of Mus musculus with 2 samples.

Results

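The proliferins are a small group of closely related secreted hormones within the prolactin family, encoded in mice by the *Prl2c* genes. They were taken here as the probes that are not controls and whose gene name on the array is *Prl2c* followed by a number. The rule found 3 probes of 3 genes, *Prl2c1*, *Prl2c3* and *Prl2c5*, among 56605 probes and 37074 gene names. The group was chosen because *Prl2c5* was strongly higher with siRNA-*Ppp2r5d*, so its values are given as a description and without a test.

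The cells were MCMs, mouse cardiomyocytes bought as cultured cells, passaged and kept in medium with 2% serum. One culture received a negative control siRNA, siRNA-NC, and another received siRNA-*Ppp2r5d*, which targets a B′-type regulatory subunit, delta, of the phosphatase PP2A. Both were moved to medium without glucose 48 h after transfection, and RNA was taken at 64 h, with no other agent named in the labels. Each RNA was hybridized to 1 one-colour array, so there is 1 array per condition, no spread between cultures and no *p* value. Both arrays were on the same slide and carry the same scan time. Probes measure RNA of the whole culture, in which fewer cells of a type and less RNA per cell cannot be told apart.

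Proliferins are best known as products of trophoblast giant cells of the placenta, where they are secreted toward the maternal tissue and act on blood vessel growth. The first of them was found as a transcript that serum and growth factors induce in cultured mouse fibroblasts, and AP-1 and the glucocorticoid receptor are known to act on a proliferin promoter. Proliferin has also been described as an inhibitor of muscle differentiation. The mannose 6-phosphate receptor *Igf2r* is a described binding partner.

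The 3 probes are shown in full because the genes are closely related and the values depend on which transcripts these 60 bases can catch. They are printed in lower case, 5′ to 3′ in the sense of the transcript.
Prl2c5 probe: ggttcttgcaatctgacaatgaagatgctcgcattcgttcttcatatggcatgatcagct
Prl2c3 probe: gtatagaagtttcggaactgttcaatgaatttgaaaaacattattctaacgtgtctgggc
Prl2c1 probe: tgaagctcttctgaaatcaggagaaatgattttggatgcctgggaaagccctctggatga
The scanner files place the *Prl2c5* probe at chr13:13283943-13284002 of the build mm9, on the plus strand. The *Prl2c3* probe is placed at chr13:12885635-12889129 on the minus strand, an interval of 3495 bases for a probe of 60. The *Prl2c1* probe is placed at chr13:27948312-27948371, which is 14664 kb from the *Prl2c5* probe, while the *Prl2c3* and *Prl2c5* probes are 397 kb apart. Which exon or untranslated region each probe belongs to was not analysed here.

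The array design itself lists more than 1 gene for the *Prl2c5* and *Prl2c3* probes. For the *Prl2c5* probe it lists RefSeq transcripts of *Prl2c5*, *Prl2c2* and *Prl2c3*, and 1 further transcript that the gene table used here does not hold. For the *Prl2c3* probe it lists transcripts of *Prl2c3* and *Prl2c2* and the same unmatched transcript, and no transcript of *Prl2c5*. For the *Prl2c1* probe *Prl2c1* was the 1 gene of the RefSeq table listed, besides 3 Ensembl transcripts that were not matched to genes. Such sharing was unusual, since of 33903 probes with a RefSeq transcript of at least 1 gene, 2.63% listed 2 or more genes and 0.9% listed 3 or more. *Prl2c2*, the gene of the original proliferin, has no probe of its own name, so it may be read by the other probes.

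The probes lie in different parts of the transcript, starting at base 242 for *Prl2c3*, 377 for *Prl2c1* and 529 for *Prl2c5*. The longest run of bases shared between any of the 3 was 7 bases, between *Prl2c3* and *Prl2c5*. None of the other 56604 probes on the array shared a run of 20 bases, or of 15, with a proliferin probe on either strand. The *Prl2c3* and *Prl2c5* probes are therefore different stretches with overlapping lists of transcripts, while the list of the *Prl2c1* probe shares no RefSeq gene with them. Comparing probes with each other cannot show which paralog transcripts a probe catches. How much each paralog adds to each reading was not tested.

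All 3 proliferin probes were brighter with siRNA-*Ppp2r5d*. The *Prl2c5* probe had a background-corrected intensity of 616 ± 61.7 with siRNA-NC and 3319 ± 332 with siRNA-*Ppp2r5d*, where ± is the error that the scanner software gives for the spot. After each array was scaled to its own 75th percentile, this was a log2 fold change of 2.62 ± 0.20, or 6.15-fold higher. The *Prl2c1* probe went from 343 ± 34.4 to 1096 ± 110, a log2 fold change of 1.87 ± 0.20 or 3.65-fold. The *Prl2c3* probe went from 21.0 ± 3.68 to 58.5 ± 6.47, a log2 fold change of 1.67 ± 0.30 or 3.18-fold. Each probe was printed as 1 spot and was well above background on both arrays.

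For each of the 3 genes, the siRNA-*Ppp2r5d* array was the high one, and the spot errors of the arrays did not overlap. These errors are technical and hold no difference between cultures. Over 238 probes printed several times, the SD of the log2 fold change between spots had a median of 0.037. Among them, 2 probes under an intensity of 100 had a median SD of 0.23, so a probe as dim as *Prl2c3* is read less exactly.

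**Figure D1:**
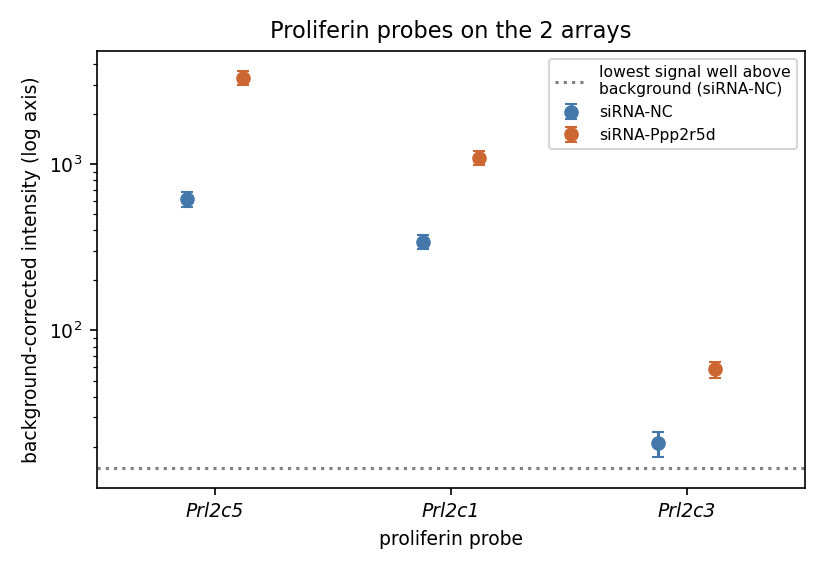
Background-corrected intensity (log axis) of the proliferin probes *Prl2c5*, *Prl2c1* and *Prl2c3* with siRNA-NC (blue) and siRNA-*Ppp2r5d* (orange). Bars are the scanner software's error of 1 spot, and the dotted line is the detection limit with siRNA-NC, the lowest intensity well above background, 14.9. Each probe is higher with siRNA-*Ppp2r5d*, and *Prl2c3* with siRNA-NC, at 21.0, lies close to that line.

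Beside these 3 of 3 probes, 0.81% of the 31611 probes measured on both arrays were at least 2-fold higher with siRNA-*Ppp2r5d*, and nothing is read from this, because the group was chosen on the same contrast. The background share depends on brightness. Within 1.5-fold of the mean intensity of the *Prl2c5* probe it was 0.359% of 3345 probes, near the *Prl2c1* probe 0.709% of 3668, and near the dim *Prl2c3* probe 1.67% of 4245. Of the 20311 genes measured on both arrays, *Prl2c5* ranked 7th in log2 fold change, *Prl2c1* ranked 20th and *Prl2c3* ranked 29th.

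**Figure D2:**
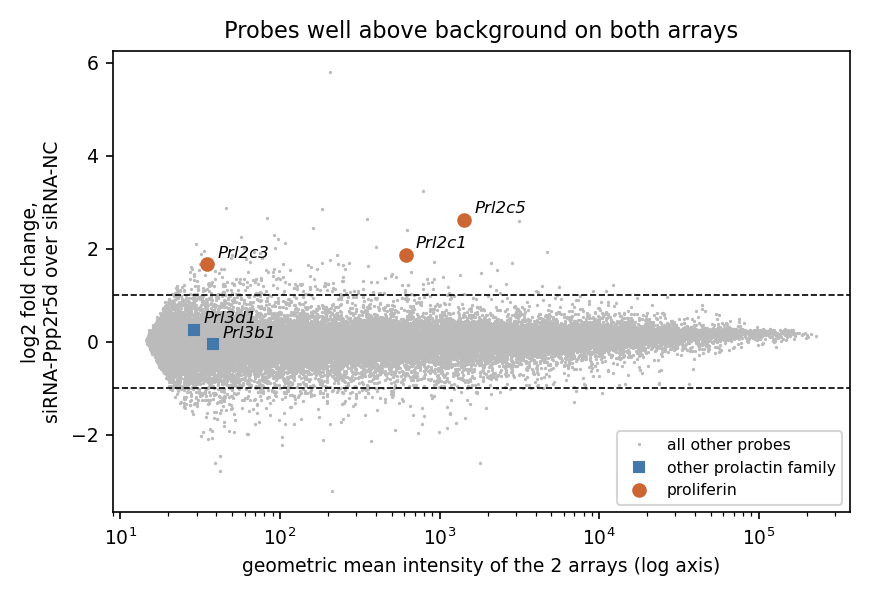
Log2 fold change of siRNA-*Ppp2r5d* over siRNA-NC against the geometric mean intensity of both arrays (log axis) for 31611 probes well above background on each array. Proliferin probes are orange, other prolactin family probes are blue squares, and dashed lines mark 2-fold. The proliferins lie at 1.67 to 2.62, while *Prl3d1* and *Prl3b1*, which are dim probes, lie at 0.26 and -0.06.

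The folds were not alike among the probes. The *Prl2c5* probe exceeded the *Prl2c1* probe by 0.75 ± 0.29 on the log2 scale and the *Prl2c3* probe by 0.95 ± 0.36, where ± again combines the spot errors. *Prl2c3* and *Prl2c1* differed by 0.20 ± 0.36, less than their error. With 1 array per condition, none of these differences was tested.

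The background of the spots is given because it touches 2 of the 3 probes. The scanner software marked the local background of the *Prl2c5* spot as unusual on both arrays and that of the *Prl2c3* spot on the siRNA-NC array, a mark carried by 4.64% of spots with siRNA-NC and 3.82% with siRNA-*Ppp2r5d*. The local backgrounds were 27 and 26 for *Prl2c5* and 29 and 25 for *Prl2c3*, beside an array median of 25. The *Prl2c5* spot was also measured at its nominal position on the siRNA-NC array, because the software had not located it there, as for 7.59% of spots well above background. With the mean pixel signal and no background subtraction, the log2 fold change was 2.50 for *Prl2c5*, 1.75 for *Prl2c1* and 0.89 for *Prl2c3*. After normexp correction with an offset of 50 the values were 2.45, 1.67 and 0.75, so the 2-fold call of *Prl2c3* was lost in both.

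**Figure D3:**
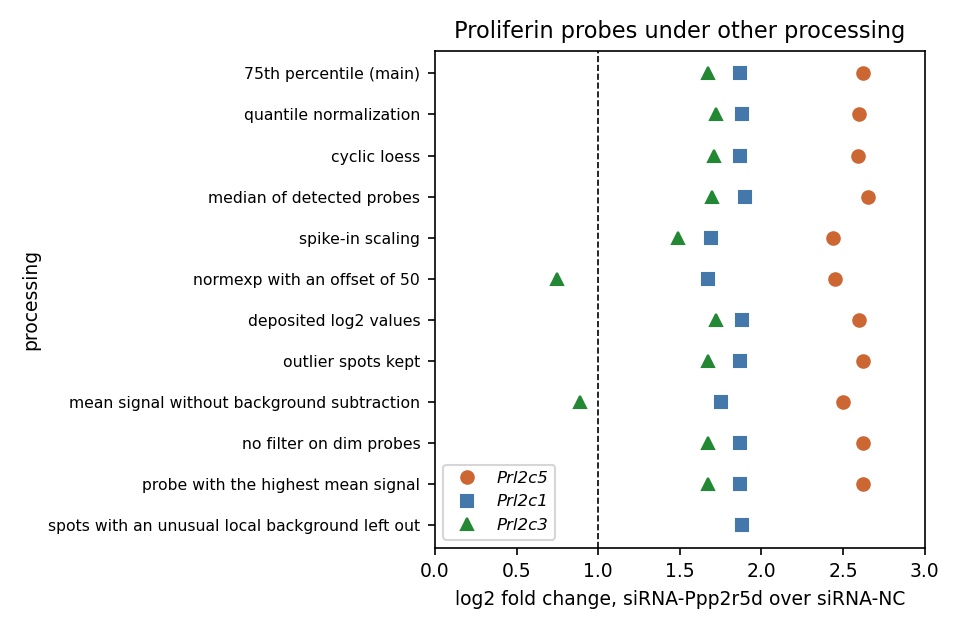
Log2 fold change of the proliferin probes (*Prl2c5* circles, *Prl2c1* squares, *Prl2c3* triangles) under each processing run, with 2-fold as the dashed line. *Prl2c5* stays between 2.44 and 2.65 and *Prl2c1* between 1.67 and 1.90, while *Prl2c3* falls to 0.75 and 0.89 under the settings that add to or keep the background.

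The rest of the prolactin family was almost silent in these cells. Besides the proliferins the array holds 22 genes of a hand-written family list with 27 probes, and 20 of these genes were not well above background on either array. Among the silent genes were *Prl*, pituitary prolactin itself, *Gh*, growth hormone, and the *Prl7* and *Prl8* genes of the placenta. The 25 probes below the limit had intensities of 2.67 to 8.68. *Prl3b1*, placental lactogen II, had intensities of 41.2 with siRNA-NC and 34.6 with siRNA-*Ppp2r5d*, a log2 fold change of -0.06. *Prl3d1*, placental lactogen I, had 28.1 and 29.4 on 1 of its 2 probes, a log2 fold change of 0.26. Neither of these 2 genes was past 2-fold.

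**Figure D4:**
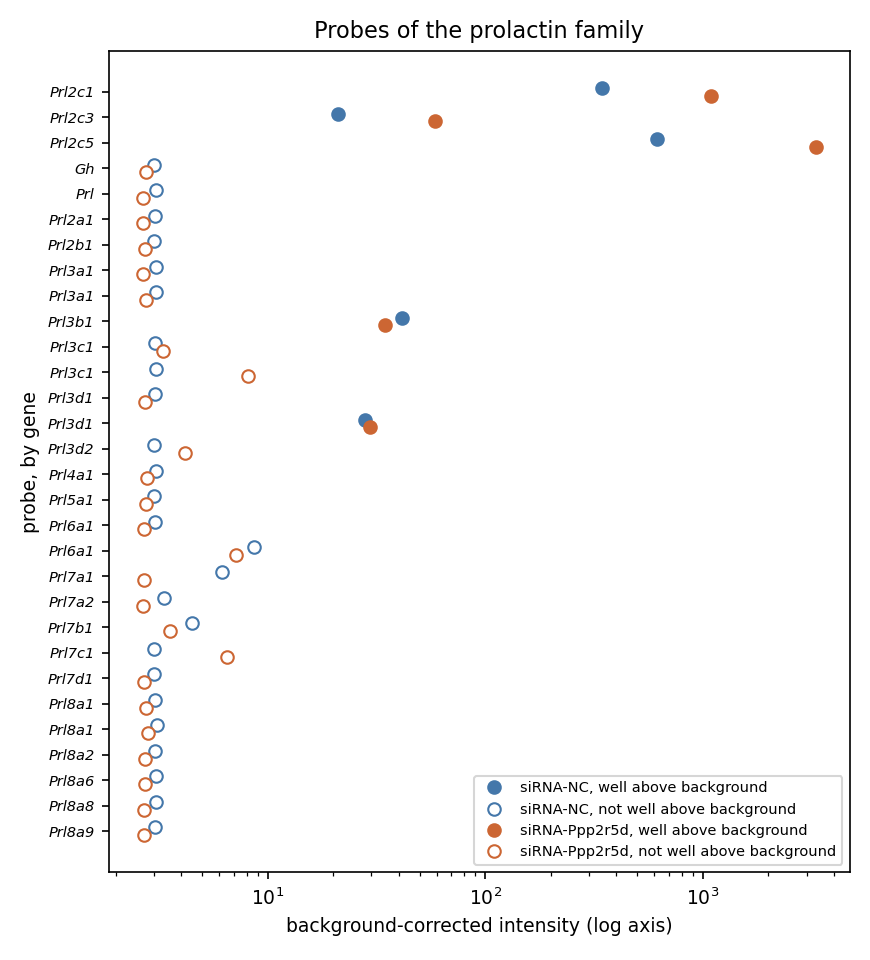
Background-corrected intensity (log axis) of each prolactin family probe on the siRNA-NC array (blue) and the siRNA-*Ppp2r5d* array (orange), with filled points for signals well above background. The proliferin probes stand at the top with filled points from 21.0 to 3319, and 25 of the 27 other probes are open points between 2.67 and 8.68.

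Markers of trophoblast were looked at because the proliferins are placental hormones. Of 7 genes listed by hand for giant cells, not all of them specific to these cells, 5 were not well above background. These 5 were *Hand1*, *Ctsq*, *Tpbpa*, *Prl7d1* and *Prl4a1*, with intensities of 2.69 to 4.82. The 2 measured on both arrays were *Prl3b1* and *Prl3d1*. Of 14 trophoblast regulators and markers, 6 were measured on both arrays, with log2 fold changes from -0.66 for *Eomes* to 0.14 for *Gcm1*, and 0 were past 2-fold in either direction. *Eomes* rests on 1 of its 2 probes, at 25.0 with siRNA-NC and 13.9 with siRNA-*Ppp2r5d*, close to the limit there of 13.5. *Gcm1* was bright, with highest intensities of 19790 and 17425 over 3 probes, and *Esx1* had 527 and 403. Over all genes measured on both arrays, 0.871% were past 2-fold upward and 1.06% downward, so a count of 0 among 6 is near that background. The list median was -0.29, or -0.20 over 5 genes without *Stra13*, a name that has been used for more than 1 gene. *Gata2*, a transcription factor of giant cells, went from an intensity of 1485 to 1367, a log2 fold change of 0.07. *Gata3*, its relative in the same cells, went from 2764 to 1772, a log2 fold change of -0.45.

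The RNA of known regulators of proliferin, and of glucocorticoid targets listed with them, did not pass 2-fold. A count of 0 among 12 is near the same background shares of 0.871% and 1.06%. The activity of the proteins was not measured. AP-1 is a dimer of JUN and FOS proteins, and all 12 genes of a list of AP-1 members, the glucocorticoid receptor and its targets were measured. Their median log2 fold change was -0.10, beside 0.024 over all genes measured, with 5 above 0 and 7 below. *Fosb* went from an intensity of 2447 to 1124 on 1 of its 2 probes, a log2 fold change of -0.93. Its other probe was not well above background, and without a filter on dim probes *Fosb* had -0.61. The value became -1.11 and so past 2-fold when the scale was set by the spike-in probes, which read control RNA added to each sample. *Jun* went from 16310 to 10185, a log2 fold change of -0.49, and *Fos* from 9498 to 6326, a log2 fold change of -0.40. *Fosl1* had 0.01 and *Nr3c1*, the glucocorticoid receptor, had 0.09. The glucocorticoid targets *Tsc22d3* and *Fkbp5* had -0.15 and -0.22. No AP-1 gene of the list had a log2 fold change above 0.14.

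Promoters were available from RefSeq for 2 of the proliferin genes, and they are shown because the probes named for both were higher. Those probes list shared transcripts, so whether both genes rose was not tested. Each runs from 250 bases before the start of the gene to 50 after it, on build GRCm38.p6, and capitals mark 2 motifs searched on both strands, TGANTCA of AP-1 and the TATA box TATATAA.
Prl2c5, chr13:13182466-13182765, plus strand: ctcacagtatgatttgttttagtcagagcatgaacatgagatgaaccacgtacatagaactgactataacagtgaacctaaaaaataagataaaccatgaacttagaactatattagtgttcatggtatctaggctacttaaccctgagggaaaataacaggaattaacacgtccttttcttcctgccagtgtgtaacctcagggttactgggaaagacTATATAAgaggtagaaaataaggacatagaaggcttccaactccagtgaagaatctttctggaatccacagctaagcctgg
Prl2c3, chr13:12800030-12800329, minus strand: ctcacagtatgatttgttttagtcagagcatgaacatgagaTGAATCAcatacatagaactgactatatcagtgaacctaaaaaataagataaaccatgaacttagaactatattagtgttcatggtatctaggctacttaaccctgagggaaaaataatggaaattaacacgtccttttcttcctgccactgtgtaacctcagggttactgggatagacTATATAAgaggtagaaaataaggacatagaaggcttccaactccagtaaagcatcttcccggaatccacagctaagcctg
The windows were 96.0% identical, with 12 differences over 299 aligned bases. Each held a TATA box, which starts at -31 in *Prl2c5* and -30 in *Prl2c3*, and 3.24% of 32851 promoters held these letters. The AP-1 letters were present in the *Prl2c3* window at -209 and not in that of *Prl2c5*, and 7.81% of promoters held them. A half-site of the glucocorticoid receptor, AGAACA, was in neither window and in 18.97% of promoters. A match in such a window is a description of letters and says nothing on binding in these cells.

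The receptors and the relay of prolactin hormones were all measured and none of their 12 genes passed 2-fold, beside 0.871% upward and 1.06% downward of all genes measured, with a median log2 fold change of -0.02. *Igf2r* went from an intensity of 2341 to 2289, a log2 fold change of 0.16. *Prlr*, the prolactin receptor, was near background on 1 of its 3 probes, at 22.0 and 28.9, and not well above it on the others. Its log2 fold change of 0.58 from that dim probe was the highest of the list. *Ghr*, the growth hormone receptor, had a log2 fold change of 0.18 over 4 probes. In the relay, *Jak2*, the kinase bound to both receptors, had -0.47 over 2 probes, *Stat5a* had -0.04 and *Stat5b* had -0.26. *Cish*, a feedback inhibitor and STAT5 target, went from 58.8 to 28.1 on 1 dim probe, a log2 fold change of -0.87. This became -1.05 with spike-in scaling, -0.25 after normexp correction and -0.38 without background subtraction.

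The genes measured around the *Prl2c3* and *Prl2c5* probes on chromosome 13 lay above 0 as well. Within 500 kb of the *Prl2c3* and *Prl2c5* probes, 20 other gene and transcript names had probes, of which 17 were measured, 8 of them with a symbol in the gene table. All 17 had a log2 fold change above 0, with a median of 0.29, beside 53.9% of all genes measured. With scaling to spike-in probes, which lowers every log2 fold change by 0.18, 14 of the 17 lay above 0, beside 25.15% of all genes measured. Under that scaling *Heatr1*, *Lyst* and an unnamed transcript lay below 0. The list was chosen by position, but *Prl2c5* was known to be high.

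*Nid1*, which encodes the basement membrane protein nidogen, was at least 2-fold higher, with a log2 fold change of 1.15. Its 3 probes went from intensities of 20422, 410 and 610 to 34543, 832 and 1300, with log2 fold changes of 0.95, 1.21 and 1.28, so the brightest was short of 2-fold. With spike-in scaling *Nid1* had 0.97. *Gpr137b*, a membrane protein of the lysosome, had 0.84 over 4 probes that ran from 0.74 to 0.89. *Gpr137b-ps*, its pseudogene near *Prl2c3*, had 0.76, and since it is a copy of *Gpr137b* the 2 may share signal. *Ero1lb*, an oxidase of the endoplasmic reticulum, had 0.59, and *Lgals8*, a galectin, had 0.38. *Heatr1* and *Lyst* had 0.12 and 0.18, and the 5 probes of *Lyst* ran from -0.14 to 0.42. Transcripts nearer to the *Prl2c3* probe than these were as low, with 0.18 for DV052864 and 0.07 for NAP059613-1. A transcript named AK044196 on the array went from 34.4 to 72.2, a log2 fold change of 1.26. Another named AK031369, 1 of 2 measured between the *Prl2c3* and *Prl2c5* probes, went from 281 to 516, a log2 fold change of 1.07. The other of these 2, placed at nearly the same position, went from 75.1 to 101, a log2 fold change of 0.62 and short of 2-fold.

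Beside these 3 of 17 neighbours at least 2-fold higher, 0.871% of the 20311 genes measured on both arrays were so. The count fell to 1 with spike-in scaling, AK044196 with 1.08, and to 1 after normexp correction, *Nid1* with 1.08. It was 2 when each gene was read from its brightest probe. Within 250 kb, a distance chosen after the values were seen, 10 of 10 measured neighbours lay above 0 with a median of 0.61, and within 1000 kb 24 of 27 with a median of 0.25. The *Prl2c1* probe lies in another place, inside the placental prolactin cluster, where 0 of 16 neighbours were well above background, 13 of them with *Prl* names, and the brightest had an intensity of 15.1.

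**Figure D5:**
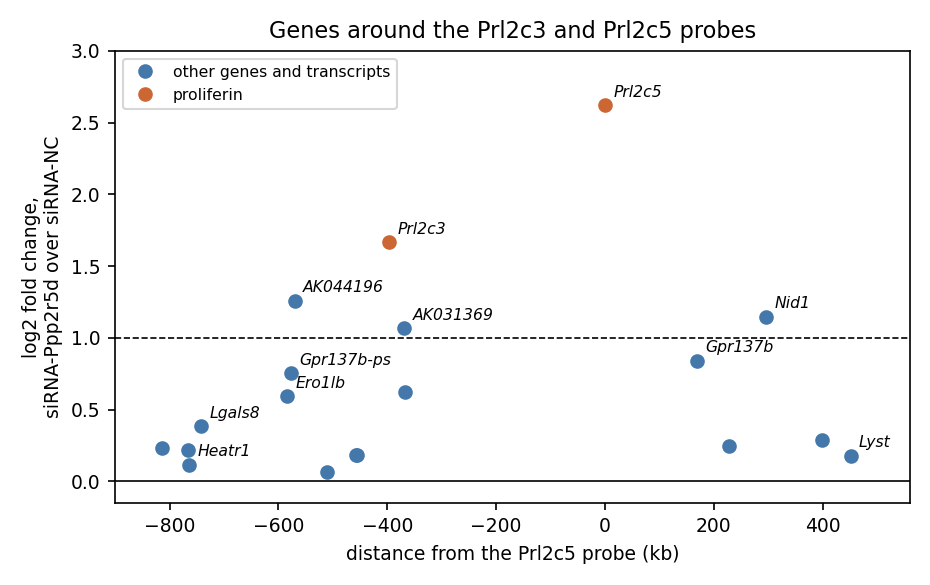
Log2 fold change of siRNA-*Ppp2r5d* over siRNA-NC for genes and transcripts measured on both arrays within 500 kb of the *Prl2c3* and *Prl2c5* probes, by distance from the *Prl2c5* probe in kb. Proliferins are orange and the 17 neighbours are blue, with the dashed line at 2-fold. All neighbours lie above 0, from 0.07 to 1.26, and those past 2-fold are *Nid1*, AK044196 and AK031369.

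Among genes measured on both arrays, those near to *Prl2c5* in log2 fold change included *Ces1a*, a carboxylesterase, with 2.64, and *Penk*, which encodes proenkephalin, with 2.85. Below it were *Crct1* with 2.60 and *Cnn1*, the smooth muscle protein calponin, with 2.41. The measure of likeness is the difference in log2 fold change over 2 arrays, and each value rests on 1 probe. *Penk* went from an intensity of 73.3 to 463, and *Crct1* went from 1358 to 7206. A pattern over 2 arrays can say no more than that these genes were higher by a similar amount.

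The targeted gene went the way of its label. *Ppp2r5d* had an intensity of 4701 with siRNA-NC and 676 with siRNA-*Ppp2r5d*, 6.09-fold lower. Of 21638 genes detected on 1 array or both, 217 (1%) passed 2-fold upward and 308 (1.42%) downward, which became 132 and 549 when the spike-in probes set the scale. Of 10 cardiomyocyte markers, 6 were measured on both arrays, 4 of them above 0. *Actc1* went from 6443 to 5268, a log2 fold change of -0.10, *Tnnt2* had 0.42 and *Myl3* had 0.90 from 40.4 to 66.2, while *Myl2* and *Myl7* were not well above background and *Myh6* and *Ryr2* were so with siRNA-*Ppp2r5d* alone. Of 8 fibroblast markers 7 were measured, with *Col1a2* up to 147520, and of 5 endothelial markers 1, *Pecam1*, was measured on both arrays. Of 5 smooth muscle markers, *Cnn1* alone was past 2-fold, with *Tagln* at 0.85 and *Acta2* at -0.02, and of 4 macrophage markers 3 were measured and 0 were past 2-fold. The part of the cell makeup of the cultures in the proliferin values was not tested.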

How the data were processed

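The authors labelled total RNA of 2 cultures with Cyanine 3 and deposited spot intensities from Feature Extraction 10.7.1.1, with the background removed per array and no scaling across arrays. The deposited log2 values match a quantile normalization, although the methods name GeneSpring and no normalization. Array coordinates are on mm9 per the file headers. Here, controls and outlier spots were dropped, log2 intensities were averaged per probe, the 75th percentile was subtracted, and probes of a gene well above background on both arrays were averaged. Genes well above background on 1 array were given a bound against the lowest signal well above background, 14.9 with siRNA-NC and 13.5 with siRNA-*Ppp2r5d*. No test was run, since there was 1 array per condition, whose number limits the precision.

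The members and the 6 gene lists and 6 marker lists, written from general knowledge, were chosen with earlier results of these data known. Genes named are all members, list genes past 2-fold or on which a count turns, neighbours within 500 kb, and the 3 genes on either side of *Prl2c5* in log2 fold change, some of which are not reported here. Others, such as *Heatr1*, were named after their values were seen. Names, synonyms and promoters are of RefSeq (GRCm38.p6), in which 23666 of 37074 array names are symbols, and promoters were held for 2 of 4 *Prl2c* genes. The gene summary was tested on simulated data. Calculations used Python 3.11.15, NumPy 2.4.6, pandas 2.3.3, Biopython 1.88, R 4.3.3 and limma 3.58.1.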

Additional observations from a re-analysis of the deposited data

How the results depend on the processing

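No paired analysis was possible because each siRNA had 1 array, which also left no replicate to drop. Values below are those that shifted beyond the spot error for a probe, beyond 0.037 for a list median, or by more than 1.5 times for a count. All log2 fold changes of the proliferin probes stayed above 0 under the alternatives run. *Prl2c5* ran from 2.44 to 2.65 over 10 alternatives and *Prl2c1* from 1.67 to 1.90 over 11. *Prl2c3*, which is dim, ran from 0.75 to 1.72 over 10. Leaving out spots with an unusual local background (an alternative chosen with the values known) left no value for *Prl2c5* and *Prl2c3* and gave 1.88 for *Prl2c1*. The count of other probes sharing a run was 0 at 20 and at 15 bases, which does not bear on the transcripts that a probe catches.

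Quantile normalization gave medians of 1.72 for the 5 measured genes of the prolactin family, proliferins included, from 1.67, of -0.15 for the AP-1 list, from -0.10, and of 0.33 for the neighbours, from 0.29, and the deposited log2 values gave the same 3 medians. Cyclic loess gave 1.71 for the family and -0.16 for AP-1. Spike-in scaling, under which the median over all genes was -0.16 in place of 0.024, gave 1.49 for the family, -0.20 for the receptors with 1 gene lower, -0.28 for AP-1 with 1 gene lower, -0.47 for the trophoblast list, 0.03 for the myogenic list with 0 genes higher, -0.26 for the angiogenic list, and 0.11 for the neighbours with 1 gene higher. It gave 132 genes higher and 549 lower in all.

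Normexp correction gave 0.75 for *Prl2c3* and for the family median, -0.11 for trophoblast, -0.01 for angiogenic genes and 0.25 for the neighbours with 1 higher, and 62 genes higher and 45 lower in all. The mean signal without background subtraction gave 0.89 for *Prl2c3*. Without a filter on dim probes, the family median was 0.04, the trophoblast median changed sign from -0.29 to 0.04 with 1 gene lower, the myogenic median was 0.12, the angiogenic median -0.01 with 2 genes higher, the neighbours' median 0.10, and 934 genes were higher and 1106 lower. The receptor median was -0.10 when each gene was read from its brightest probe. At 1.5-fold, 1 receptor gene, 1 AP-1 gene and 1 trophoblast gene were lower, 2 angiogenic genes and 7 neighbours were higher, and 818 genes were higher and 1168 lower. Windows of 250 kb and 1000 kb gave neighbour medians of 0.61 and 0.25. Threshold, filter and window change counts by construction, and for the rest the cause was not tested. Signal over background limits *Prl2c3* and the placental lactogens.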

Other observations

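Genes of muscle differentiation were listed because proliferin has been described as an inhibitor of it. Of 10 genes, 8 were measured on both arrays, with a median log2 fold change of 0.21, and 1 was past 2-fold, beside 0.871% of all genes measured on both arrays that were at least 2-fold higher. *Id2*, an inhibitor of basic helix-loop-helix factors such as MYOD, was at least 2-fold higher, with intensities of 1462 and 228 on its 2 probes with siRNA-NC and 2945 and 414 with siRNA-*Ppp2r5d*, and a log2 fold change of 1.13. Its relatives *Id1* and *Id3* had 0.29 and 0.43. *Myod1*, the master regulator of skeletal muscle, went from 451 to 348, a log2 fold change of -0.18, and *Myog* had 0.11. With spike-in scaling *Id2* had 0.95 and was no longer past 2-fold.

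Genes of blood vessel growth were listed because proliferin acts on vessels. Of 12 genes 8 were measured on both arrays, with a median log2 fold change of -0.08, and 1 was past 2-fold. *Vegfc*, a growth factor of lymphatic vessels, had a log2 fold change of 1.73. Its 3 probes went from 1247, 544 and 35.0 to 3538, 1558 and 106, with log2 fold changes of 1.70, 1.71 and 1.78. *Vegfa* had 0.14 over 4 probes and *Angpt1* had 0.60 from 1 probe. The background share of 0.871% holds for this list too. These values have no replicate check.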
